A study of Mus musculus with 37 samples.

Results

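Transcripts of 9 genes of matrix turnover were followed in the left ventricle of mice after cardiac arrest and resuscitation: 3 matrix metalloproteases (Mmp3, Mmp2 and Mmp14), 2 ADAMTS proteases (Adamts1 and Adamts4) and the 4 tissue inhibitors of metalloproteases (Timp1, Timp2, Timp3 and Timp4). The 9 genes were chosen by name from the 56748 genes of the expression table, with earlier results known in which Mmp3 and Timp1 were among the genes that rose most in Arrest hearts at 0.5 days and Mmp3 in Adr hearts at 1 day. All 9 genes passed the filter on low values, as did 16530 genes in all. The study compared Naïve, Adr and Arrest mice, all C57BL/6J males and females aged 8 to 10 weeks and all under isoflurane. Naïve mice (5 libraries) were neither intubated nor injected, and were euthanized after imaging without a time of recovery. Adr mice, which the sample labels call sham, were ventilated and received 40 µL of saline into the left ventricle and, 8 min later, 500 µL of adrenaline at 15 µg/mL by the same route. Arrest mice had the same procedure, with 0.5 M potassium chloride in place of saline to stop the heart, and chest compressions after the adrenaline. Adr and Arrest hearts were taken at 0.5, 1, 3 or 7 days, with 4 libraries in each of the 8 Adr and Arrest groups. The Adr hearts thus also carry the needle injury and the adrenaline. Differences from Naïve include the recovery, which cannot be told apart from the treatment. Some Arrest mice died before 3 or 7 days, so the Arrest hearts of these times are from survivors. RNA came from pieces of the left ventricle without the apex, so the values are of whole tissue, in which fewer cells of a type and less RNA per cell cannot be told apart.

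Matrix metalloproteases are secreted or membrane-bound zinc enzymes that cut collagens, proteoglycans and other matrix proteins, and they are made as inactive proenzymes. Mmp3 encodes stromelysin, which cuts many matrix proteins and activates other proenzymes, Mmp2 encodes a gelatinase, and Mmp14 encodes a membrane-bound collagenase that activates pro-MMP2 together with TIMP2. ADAMTS1 and ADAMTS4 cut proteoglycans such as versican and aggrecan. TIMPs inhibit metalloproteases by binding their active site, and which TIMP acts on which of the proteases named here was not examined. In injured heart muscle, cytokines are known to induce Mmp3 and Timp1, fibroblasts make much of the Mmp2 and Timp2, and Timp4 is known for its expression in heart.

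The promoters of Mmp3, Timp1 and Timp4 are printed because these are the 3 genes whose levels passed the test in Arrest hearts at 1 day. Each is the 250 bases before the RefSeq start of the gene in build GRCm38.p6, on the strand of the gene, at chr9:7445572-7445821 (plus strand) for Mmp3, chrX:20869916-20870165 (plus strand) for Timp1 and chr6:115252206-115252455 (minus strand) for Timp4. Capitals mark matches, on either strand, to 4 motifs that were searched. The AP-1 motif was searched as TGANTCA. The STAT motif was searched as TTCNNNGAA and the motif of the C/EBP factors as TTGCNNAA. The pattern of the core promoter element known as the TATA box was searched as TATAAA.
Mmp3: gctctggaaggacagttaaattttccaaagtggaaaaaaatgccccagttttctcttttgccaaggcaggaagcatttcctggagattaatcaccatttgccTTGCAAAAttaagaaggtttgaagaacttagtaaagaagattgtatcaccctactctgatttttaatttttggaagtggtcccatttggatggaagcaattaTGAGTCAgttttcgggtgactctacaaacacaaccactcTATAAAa
Timp1: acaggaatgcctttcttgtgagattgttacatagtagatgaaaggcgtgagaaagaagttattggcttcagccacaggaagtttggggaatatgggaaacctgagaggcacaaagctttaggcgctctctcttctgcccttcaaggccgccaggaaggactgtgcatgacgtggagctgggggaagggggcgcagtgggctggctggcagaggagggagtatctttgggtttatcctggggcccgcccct
Timp4: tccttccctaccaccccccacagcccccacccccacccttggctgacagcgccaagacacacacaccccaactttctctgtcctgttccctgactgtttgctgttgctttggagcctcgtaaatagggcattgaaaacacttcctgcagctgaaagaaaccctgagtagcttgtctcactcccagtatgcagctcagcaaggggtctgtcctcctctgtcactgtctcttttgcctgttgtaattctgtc
The Mmp3 window held the C/EBP pattern, the AP-1 pattern and the TATA box pattern, in that order towards the start, and these matches did not overlap each other. The windows of Timp1 and Timp4 held none of the 4 letter patterns. Among 27025 promoters cut to the same length, the AP-1 pattern was present in 6.87%, the STAT pattern in 7.18%, the C/EBP pattern in 9.55% and the TATA box pattern in 13%. The promoters of 7 of the 9 genes were in the table of RefSeq promoters, and of these only Mmp3 and Adamts1 held any of the 4 patterns, Adamts1 that of the TATA box. A match is a run of letters and was not tested as a binding site. Mmp2 and Adamts4 were not in that table.

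Between 13.2 and 30.18 M (1 M is 1e6) fragments were counted on genes in each library (median 14.94). Genes of the mitochondrial genome took 20.76 to 30.93% of the fragments in 36 libraries and 9.357% in Adr 3 d replicate 3. Markers of monocytes and macrophages (8 genes, all above 0 in it) summed to 2545 FPKM in that library and to 451, 510 and 693 FPKM in the other Adr 3 d libraries, while 6 markers of ventricular cardiomyocytes summed to 3257 FPKM there and to 6517 to 13058 FPKM in the others. The study excluded 1 Adr sample at 3 days for quality, and the labels do not say which, so all 37 libraries were fitted together and calls on the 9 genes that changed are also given without Adr 3 d replicate 3. The study does not state which strand was counted, and the labels give each library as a sample of its own, so p-values measure the spread between these libraries. Levels are given as FPKM, the fragments per kilobase of gene per 1e6 fragments of a library size implied by the deposited values. That size was not the number of fragments counted on genes. It was 24.14 M in Adr 3 d replicate 3, where 17.17 M were counted, and 12.92 M in Arrest 1 d replicate 3, where 14.53 M were counted. Differences are given as log2 differences of FPKM + 1, which understate the change of genes at low FPKM. A gene is said to have risen or fallen where the adjusted p of limma's moderated test over all 16530 genes was at most 0.05.

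Mmp3 (ENSMUSG00000043613, chromosome 9 from 7445822 to 7455975, positions as the table gives them, whose build the sources used here do not name) stood between 0.776 and 5.32 FPKM in the 5 Naïve libraries, at 5.32, 1.503, 3.13, 0.776 and 5.28 FPKM. In Arrest hearts it reached 16.6, 36.03, 33.9 and 35.1 FPKM at 0.5 days. It was 23.4, 16.1, 28.9 and 24.9 FPKM in Arrest hearts at 1 day. All 8 of these libraries lay above every Naïve library. At 3 days the Arrest libraries split, with 28.4 FPKM in replicate 1 and 4.39, 7.39 and 3.19 FPKM in the others. At 7 days they stood at 5.49, 6.64, 3.08 and 3.07 FPKM, overlapping Naïve. The Adr libraries were also high at the early times, with 7.07, 7.02, 17.3 and 17.7 FPKM at 0.5 days and 14.1, 19.1, 29.2 and 9.56 FPKM at 1 day, all above Naïve. At 3 days they stood at 3.23, 2.15, 6.90 and 13.3 FPKM and at 7 days at 4.63, 4.54, 4.77 and 6.98 FPKM, overlapping Naïve in both groups.

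By group mean, Mmp3 was highest in Arrest at 0.5 days (30.4 ± 9.24 FPKM, SD, n = 4), then in Arrest at 1 day (23.3 ± 5.33, n = 4), Adr at 1 day (18.0 ± 8.44, n = 4) and Adr at 0.5 days (12.3 ± 6.03, n = 4), and lowest in Naïve (3.20 ± 2.10, n = 5). Across the 9 genes, 72 pairs of groups were neighbours in such an order of means, and the libraries of 71 pairs overlapped. The exception was Timp1, between Adr at 0.5 days and Adr at 7 days. Single steps in the orders are therefore within the spread of the libraries.

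Mmp3 rose by 2.67 ± 0.46 on the log2 scale (SE) in Arrest at 1 day against Naïve, a ratio of means of 7.29 (adjusted p = 0.000854). Within the Arrest arm it was higher at 1 than at 7 days by 2.15 ± 0.48 (adjusted p = 0.0181). In Adr at 0.5 days the difference from Naïve was 1.70 ± 0.46, with an adjusted p of 0.0896. In the comparisons that were used to choose the genes, the differences are a description: 3.01 in Arrest at 0.5 days and 2.24 in Adr at 1 day. The difference of 2.49 between 0.5 and 7 days in Arrest rests on the same Arrest libraries at 0.5 days and is also a description. The call at 1 against 7 days was lost without Arrest 1 d replicate 1 (0.0646) or 3 (0.0903) and without Arrest 7 d replicate 3 (0.0587) or 4 (0.0605). It was also lost with the number in the sample description as a covariate (1.96, adjusted p = 0.111).

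**Figure D1:**
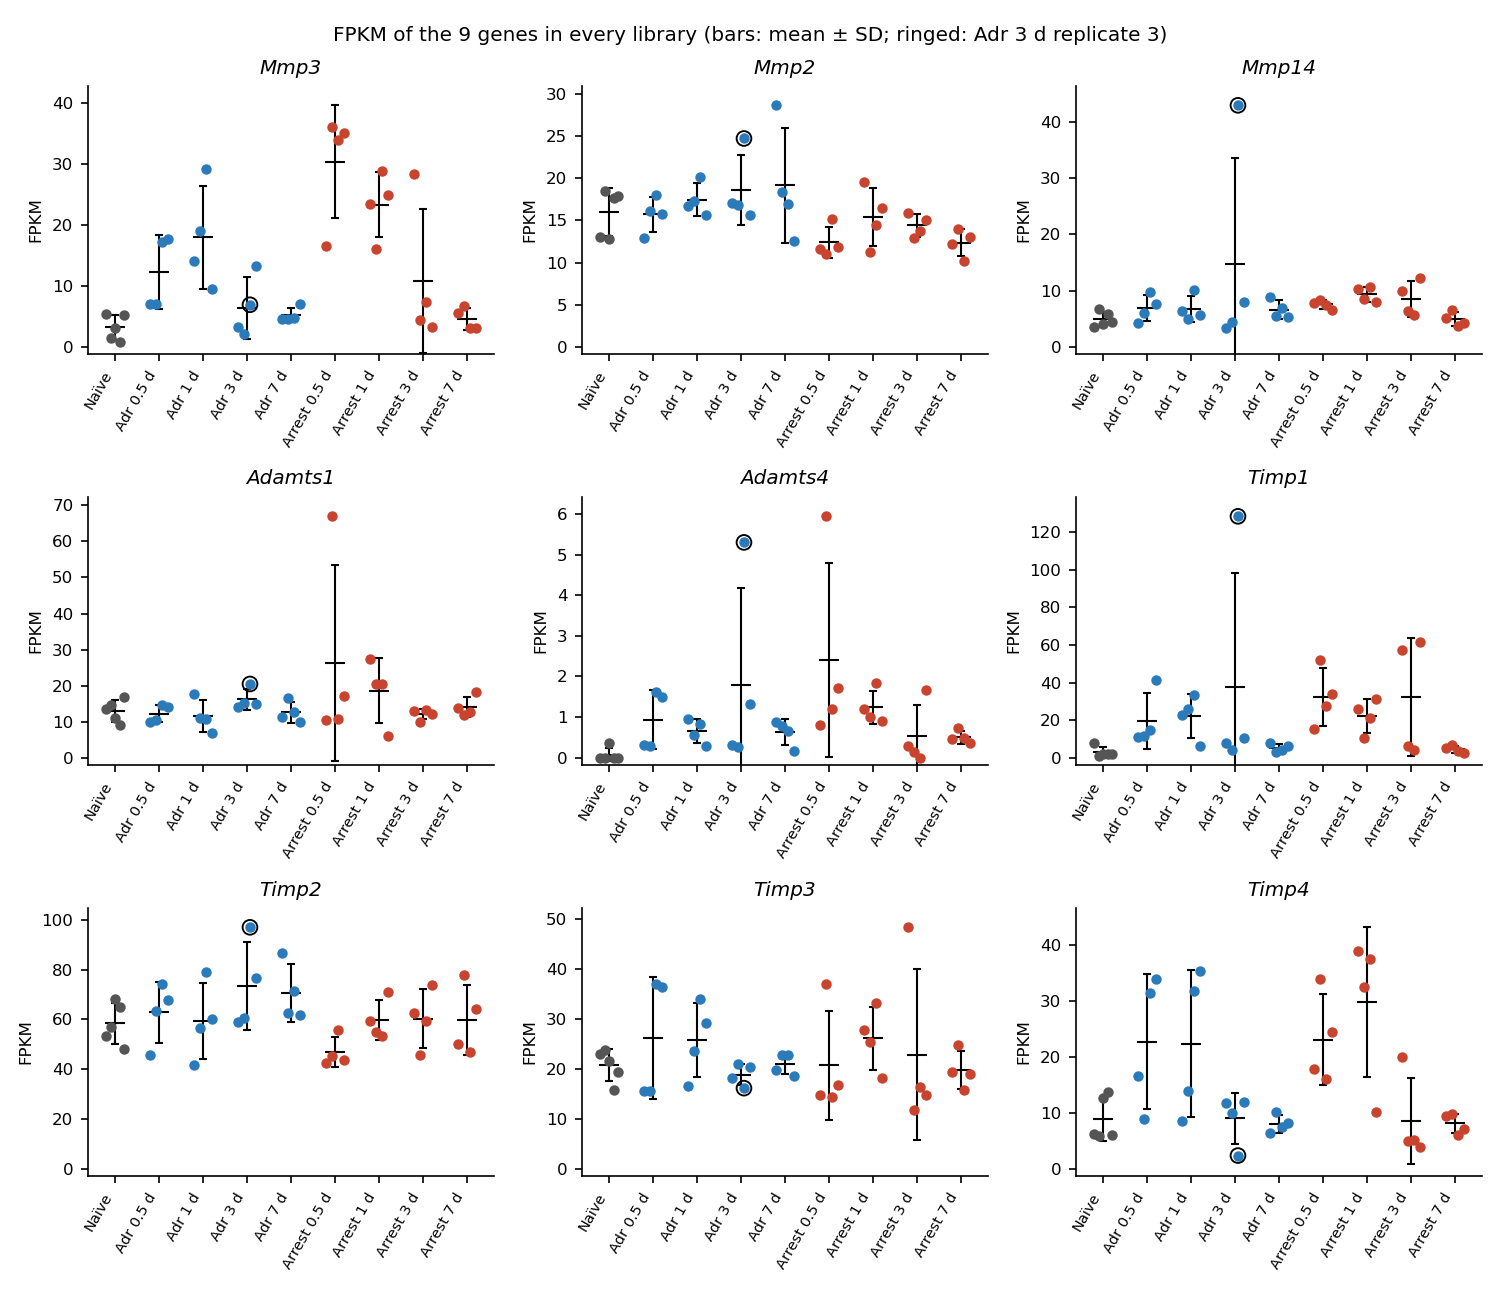
FPKM of the 9 genes (y axis, FPKM, a scale of its own for each gene) in each of the 37 libraries (points) by group (x axis), with the group mean ± SD (bars, some of which run below the axis) and Adr 3 d replicate 3 ringed. Mmp3 and Timp1 stood above Naïve in every Arrest library at 0.5 and 1 day, Timp2 was the highest TIMP in most libraries, and Timp1 reached 128.4 FPKM in the ringed library.

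Timp1 (ENSMUSG00000001131, chromosome X from 20736405 to 20740974), the inhibitor known as inducible, was low in the Naïve hearts, at 7.70, 0.993, 1.80, 2.24 and 2.18 FPKM. In Arrest hearts it stood at 15.2, 52.1, 27.5 and 33.8 FPKM at 0.5 days. At 1 day the Arrest libraries held 25.96, 10.6, 21.2 and 31.3 FPKM. Every one of these libraries was above the highest Naïve library. Arrest hearts at 3 days fell into high and low libraries, with 57.2 FPKM in replicate 1, 61.7 in replicate 4, 6.34 in replicate 2 and 4.13 in replicate 3. At 7 days the values were 5.23, 6.70, 3.58 and 2.31 FPKM, within the Naïve range.

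In Adr hearts Timp1 was 10.9, 11.4, 14.5 and 41.5 FPKM at 0.5 days and 22.7, 25.97, 33.6 and 6.29 FPKM at 1 day. At 3 days it was 7.65, 3.91 and 10.4 FPKM in replicates 1, 2 and 4 and 128.4 FPKM in replicate 3, the highest value of the gene in the 37 libraries. At 7 days the Adr values, 8.09, 3.30, 4.03 and 6.03 FPKM, overlapped Naïve.

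Timp1 rose by 2.64 ± 0.71 in Arrest at 1 day against Naïve, a ratio of means of 7.47 (adjusted p = 0.0209). Without Arrest 1 d replicate 1, 3 or 4 the adjusted p was 0.0656, 0.061 and 0.0503, and with a test on the recovered fragments (limma voom) it was 0.252. The spread of Adr 3 d replicate 3 entered every comparison of this gene through the shared estimate of variance. Without that library the SE fell from 0.71 to 0.59, and Timp1 was also called in Adr at 0.5 days (2.35, adjusted p = 0.0389) and in Arrest at 3 days (2.47, adjusted p = 0.0322). With all libraries these comparisons had adjusted p-values of 0.128 and 0.114. In the comparisons used for the choice of genes the differences were 3.13 in Arrest at 0.5 days and 2.53 in Adr at 1 day.

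Timp1 lies within Syn1, Timp3 within Syn3 and Timp4 within Syn2, each on the opposite strand. Syn1, Syn2 and Syn3, the synapsin genes known from neurons, reached at most 0.578, 2.32 and 0.191 FPKM in the 37 libraries. By the exons of GENCODE M21, Timp1 shares 0 of its 888 exon bases with Syn1, Timp4 shares 90 of 5894 with Syn2 and Timp3 shares 1733 of 8144 with Syn3. Syn2 stood between 0.293 and 0.537 FPKM in Naïve and at 1.66, 1.97, 1.73 and 0.184 FPKM in Arrest at 1 day, with the lowest value in the library that was also lowest in Timp4. The difference of Syn2 in Arrest at 1 day was 0.66 (adjusted p = 0.0645, and 0.0477 without Adr 3 d replicate 3). Without the counted strand, reads of such pairs cannot be told apart where they share exons.

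Timp4 (ENSMUSG00000030317, chromosome 6 from 115218853 to 115229166), an inhibitor with high expression in heart, stood at 6.27, 5.92, 12.7, 13.7 and 5.97 FPKM in Naïve. In Arrest hearts it was 17.9, 34.0, 16.01 and 24.5 FPKM at 0.5 days, all above Naïve. At 1 day it was 39.0, 32.5, 37.7 and 10.1 FPKM, with replicate 4 inside the Naïve range. At 3 days only replicate 1 was high, at 20.1 FPKM, and the others held 4.96, 5.16 and 3.85 FPKM, below every Naïve library. At 7 days the values were 9.49, 9.74, 6.13 and 7.21 FPKM.

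In Adr hearts Timp4 split within groups, at 16.7, 8.84, 31.5 and 34.1 FPKM at 0.5 days and 8.51, 13.9, 31.9 and 35.3 FPKM at 1 day. At 3 days it was 11.8, 10.1, 2.37 and 12.0 FPKM, lowest in replicate 3, and at 7 days 6.37, 10.2, 7.46 and 8.18 FPKM. Timp4 rose by 1.56 ± 0.46 in Arrest at 1 day against Naïve, a ratio of means of 3.35 (adjusted p = 0.0344). This call was lost in 6 of the 9 fits that left out 1 library, without Naïve replicate 1, 2 or 5 or Arrest 1 d replicate 1, 2 or 3 (adjusted p from 0.0701 to 0.125). Between 1 and 7 days in Arrest the difference was 1.61 ± 0.48 (adjusted p = 0.0751), and without Adr 3 d replicate 3 the adjusted p was 0.0342. The differences in Adr were 1.18 at 0.5 days (adjusted p = 0.231) and 1.12 at 1 day.

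Adamts4 (ENSMUSG00000006403, chromosome 1 from 171077990 to 171088206), an aggrecan- and versican-cutting protease, was near the floor of the data, with 0 to 615 fragments per library. It is listed at 0 in 4 Naïve libraries and at 0.364 FPKM in Naïve replicate 3. In Arrest hearts it stood at 0.801, 5.94, 1.19 and 1.71 FPKM at 0.5 days. At 1 day it stood at 1.21, 1.008, 1.83 and 0.907 FPKM. All 8 libraries were above Naïve replicate 3. At 3 days the Arrest values were 0.294, 0.153, 0 and 1.66 FPKM and at 7 days 0.460, 0.723, 0.476 and 0.355 FPKM.

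Adr hearts held 0.322, 0.295, 1.62 and 1.51 FPKM of Adamts4 at 0.5 days and 0.947, 0.551, 0.825 and 0.282 FPKM at 1 day. At 3 days they held 0.314, 0.273, 5.30 and 1.33 FPKM, highest in replicate 3, and at 7 days 0.888, 0.787, 0.670 and 0.165 FPKM. The difference from Naïve in Arrest at 1 day was 1.05 ± 0.36 (adjusted p = 0.0676), and without Adr 3 d replicate 3 it was called (1.05 ± 0.30, adjusted p = 0.0214). With a pseudocount of 0.1 the difference was 3.24 (adjusted p = 0.00618). In Arrest at 0.5 days, used for the choice of genes, the difference was 1.45.

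Adamts1 (ENSMUSG00000022893, chromosome 16 from 85590715 to 85600001), the related protease that cuts versican, was much higher per length than Adamts4, at 13.0 ± 3.08 FPKM in Naïve (SD, n = 5). Arrest hearts at 0.5 days held 10.4, 66.9, 10.7 and 17.1 FPKM, so that replicate 2 alone carried the high mean. At 1 day the values were 27.4, 20.55, 20.49 and 6.09 FPKM, with 3 libraries above the highest Naïve library (16.9 FPKM) and replicate 4 below the lowest (9.06 FPKM). In the other groups Adamts1 stood between 6.77 and 20.47 FPKM. The difference in Arrest at 1 day was 0.35 ± 0.36 (adjusted p = 0.632), and Adamts1 was not called in any comparison.

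Mmp14 (ENSMUSG00000000957, chromosome 14 from 54669069 to 54682821), the membrane-bound collagenase, stood at 3.57, 6.79, 4.02, 5.86 and 4.403 FPKM in Naïve. In Arrest it was 7.87, 8.34, 7.48 and 6.56 FPKM at 0.5 days and 10.3, 8.46, 10.6 and 7.98 FPKM at 1 day, all above Naïve at 1 day. At 3 days it was 9.94, 6.33, 5.58 and 12.3 FPKM, and at 7 days 5.16, 6.57, 3.67 and 4.29 FPKM. In Adr at 3 days replicate 3 held 43.0 FPKM, where the others held 3.29, 4.44 and 8.03 FPKM. The Adr libraries of the other times stood between 4.23 and 10.2 FPKM. The difference in Arrest at 1 day was 0.82 ± 0.37 (adjusted p = 0.189) with all libraries and 0.82 ± 0.23 (adjusted p = 0.0209) without Adr 3 d replicate 3. In Adr at 3 days the difference from Naïve went from 0.76 to 0.03 without that library. A lncRNA gene on the same strand (ENSMUSG00000120849) overlaps Mmp14 in the table and averaged 1.73 FPKM against 7.74 FPKM for Mmp14.

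Mmp2 (ENSMUSG00000031740, chromosome 8 from 93553919 to 93580048), the gelatinase, varied little between groups, at 15.99 ± 2.80 FPKM in Naïve (SD, n = 5). Its group means ran from 12.4 FPKM in Arrest at 0.5 and 7 days to 19.2 FPKM in Adr at 7 days, with single libraries from 10.2 to 28.7 FPKM. At 7 days Arrest was 0.54 below Adr (95% interval of the log2 difference from -0.91 to -0.18, adjusted p = 1), and in Arrest at 1 day the difference from Naïve was -0.06 (95% interval -0.40 to 0.29). Timp2 (ENSMUSG00000017466, chromosome 11 from 118191895 to 118246566), the inhibitor that also takes part in activating pro-MMP2, was the highest TIMP per length in Naïve, at 58.4 ± 8.29 FPKM (SD, n = 5). Its group means ran from 46.9 FPKM in Arrest at 0.5 days to 73.4 FPKM in Adr at 3 days, where replicate 3 held 97.0 FPKM. In Arrest at 1 day the interval of its log2 difference from Naïve was -0.33 to 0.40, so that a change by more than that width was not seen, and smaller ones could not be told from 0.

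Timp3 (ENSMUSG00000020044, chromosome 10 from 86136236 to 86185370), the inhibitor that is bound to the matrix, was 20.7 ± 3.21 FPKM in Naïve (SD, n = 5), between 15.8 and 23.8 FPKM. Its group means stayed between 18.9 and 26.2 FPKM, but single libraries stood far above, with 37.03 FPKM in Arrest 0.5 d replicate 2 and 48.4 FPKM in Arrest 3 d replicate 1. In Adr at 0.5 days replicates 3 and 4 held 37.03 and 36.5 FPKM, and replicates 1 and 2 held 15.5 and 15.7 FPKM. Mmp2, Timp2 and Timp3 were not called in any of the 16 comparisons, with or without Adr 3 d replicate 3.

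**Figure D2:**
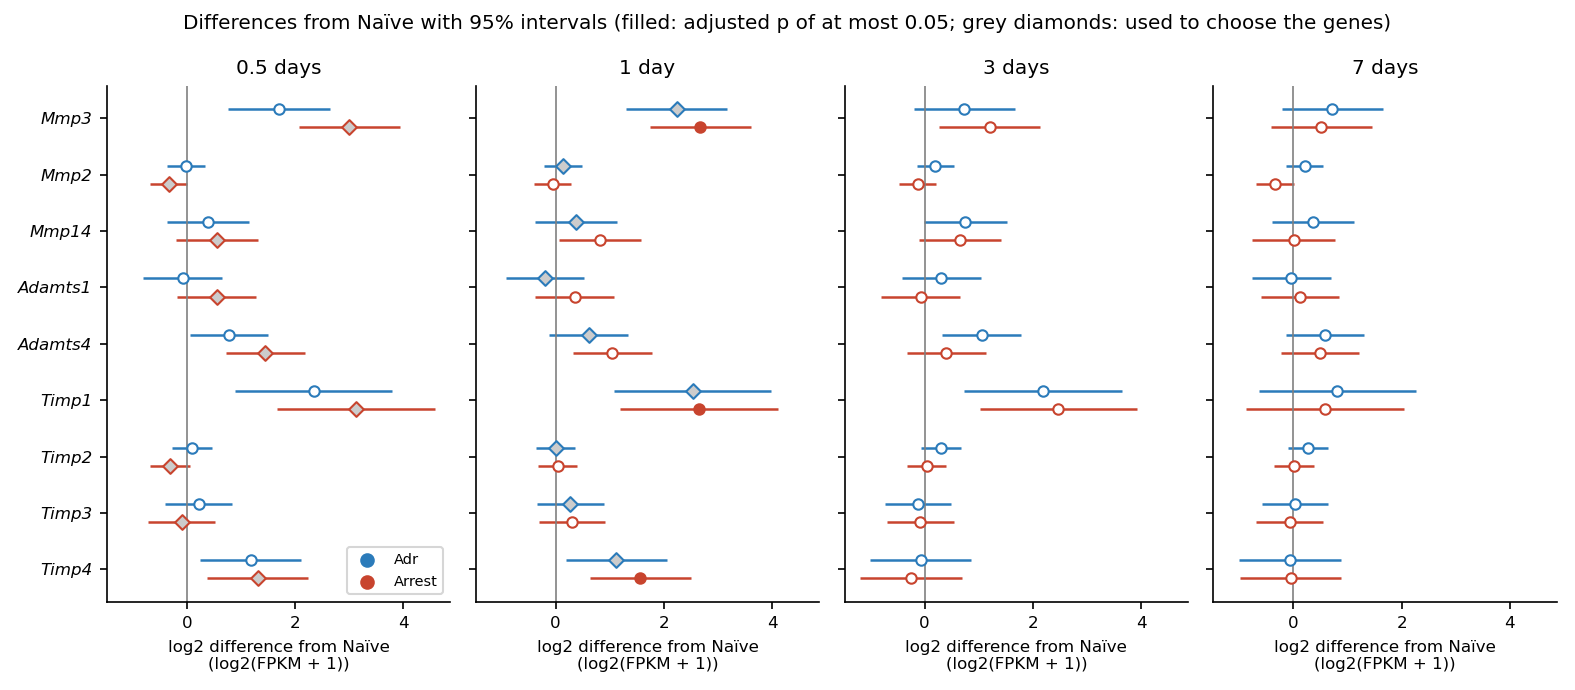
Log2 differences of the 9 genes from Naïve (x axis, log2(FPKM + 1)) at each time, Adr in blue and Arrest in red, with 95% intervals (lines); filled points had an adjusted p of at most 0.05, and grey diamonds are the comparisons used to choose the genes. At 1 day in Arrest, Mmp3 (2.67), Timp1 (2.64) and Timp4 (1.56) passed the test, and at 7 days all intervals reached 0 or beyond.

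Counted over the 9 genes, 3 were called in Arrest at 1 day against Naïve, all higher, where 7.11% of all tested genes were called in either direction. The median log2 difference of the 9 genes was 0.82, and that of all tested genes 0.03. Without Adr 3 d replicate 3, 5 of the 9 genes were called and 10.3% of all genes. In Arrest at 3 days 0 of the 9 genes were called and 0.139% of all genes, and without that library 1 (Timp1) and 1.13%. With all libraries 2 of the 9 had an unadjusted p under 0.05, as had 2269 of the 16530 tested genes. In Adr at 0.5 days 0 were called and 0.188% of all genes, and without Adr 3 d replicate 3 1 (Timp1) and 1.38%. With all libraries 4 of the 9 had an unadjusted p under 0.05 there, as had 2312 of the 16530 tested genes. At 7 days in Arrest and at 3 and 7 days in Adr, 0 of the 9 genes and 0% of all genes were called. At an unadjusted p under 0.05 there were 0, 2 and 0 of the 9 genes in these 3 comparisons, and 852, 2295 and 1017 of the 16530 tested genes. The test on recovered fragments (limma voom) also called 0 of the 9 genes in each of these 5 comparisons.

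Arrest at 0.5 days and Adr at 1 day, which served to choose the genes, had 3 (Mmp3, Timp1 and Adamts4) and 1 (Mmp3) of the 9 genes past the threshold, where 3.21% and 0.69% of all genes passed. Without Adr 3 d replicate 3 they had 3 and 2 (Mmp3 and Timp1), with 5.5% and 2.52% of all genes. Nothing is read from these counts. The comparisons with Naïve share its 5 libraries, so their values are not independent of one another. The genes were chosen on the Naïve, Arrest 0.5 d and Adr 1 d libraries, which also enter the comparisons at other times and between the arms. With the number in the sample description as a covariate, 0 of the 9 genes were called in Arrest at 1 day, with Mmp3 at an adjusted p of 0.116, and that number and the group cannot be told apart there.

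Within the Arrest arm 1 of the 9 genes, Mmp3, was called between 1 and 7 days (1.89% of all genes), higher at 1 day. Without Adr 3 d replicate 3 there were 2, Mmp3 and Timp4 (3.97% of all genes). Between 0.5 and 7 days, where the Arrest libraries at 0.5 days had served to choose the genes, 1 passed the threshold (Mmp3) with 0.381% of all genes, and without Adr 3 d replicate 3, 2 (Mmp3 and Timp1) with 1.23% of all genes, and nothing is read from these counts. Between 1 and 7 days all 9 genes had a positive log2 difference, with a median of 0.56 against 0 over all genes. Of the 9 genes 4 had an unadjusted p under 0.05, as had 2456 of the 16530 tested genes. In the Adr arm 0 of the 9 genes were called between 1 and 7 days (0.0423% of all genes), with Mmp3 1.52 ± 0.48 higher at 1 day (adjusted p = 0.258). There 3 of the 9 had an unadjusted p under 0.05, as had 1600 of the 16530 tested genes.

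Arrest and Adr hearts were compared at each time. This asks what the arrest, the potassium chloride and the chest compressions together add to injection and adrenaline, and these cannot be told apart. Of the 9 genes, 0 were called at 0.5, 1 or 3 days, where 0% of all genes were called, and 0 at 7 days, where 0.00605% were. The numbers with an unadjusted p under 0.05 were 2, 0, 0 and 1, beside 638, 1090, 888 and 416 of the 16530 tested genes. On the recovered fragments limma voom also called 0 of the 9 genes. Mmp3 showed the largest difference at 0.5 days, 1.30 ± 0.48 higher in Arrest (95% interval 0.32 to 2.29, adjusted p = 1), with libraries that overlapped, since Arrest 0.5 d replicate 1 (16.6 FPKM) lay below Adr replicates 3 and 4. At 1 day its difference was 0.43 (95% interval -0.55 to 1.42). For Timp1 the differences were 0.78 (95% interval -0.75 to 2.31) at 0.5 days and 0.12 (-1.42 to 1.65) at 1 day, and for Timp4 0.13 (-0.85 to 1.12) and 0.44 (-0.55 to 1.43). These intervals include differences of more than 1 on the log2 scale, so the data do not show that the arms were alike. The change from 1 to 7 days did not differ between the arms past the threshold for any of the 9 genes (0% of all genes called), and for Mmp3 it was 0.63 larger in Arrest (95% interval -0.76 to 2.03).

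The 4 TIMP transcripts together summed to 91.0 ± 10.8 FPKM in Naïve (SD, n = 5), of which Timp2 took 64.1%, Timp3 23.0%, Timp4 9.57% and Timp1 3.31% on average. In Arrest at 0.5 days the sum was 123 ± 32.8 FPKM (n = 4), with 39.97% from Timp2, 25.1% from Timp1 and 18.7% from Timp4. In Arrest at 1 day the sum was 138 ± 13.2 FPKM (n = 4), with 43.7%, 16.03% and 21.4%. At 7 days the shares were near those of Naïve, with 64.7% from Timp2 and 4.82% from Timp1. The share of Timp1 thus stood between 16.8 and 30.9% in the single Arrest libraries at 0.5 days and between 1.13 and 8.51% in the Naïve libraries. In Adr at 3 days Timp1 took 52.6% in replicate 3 and 4.10 to 8.68% in the other libraries.

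**Figure D3:**
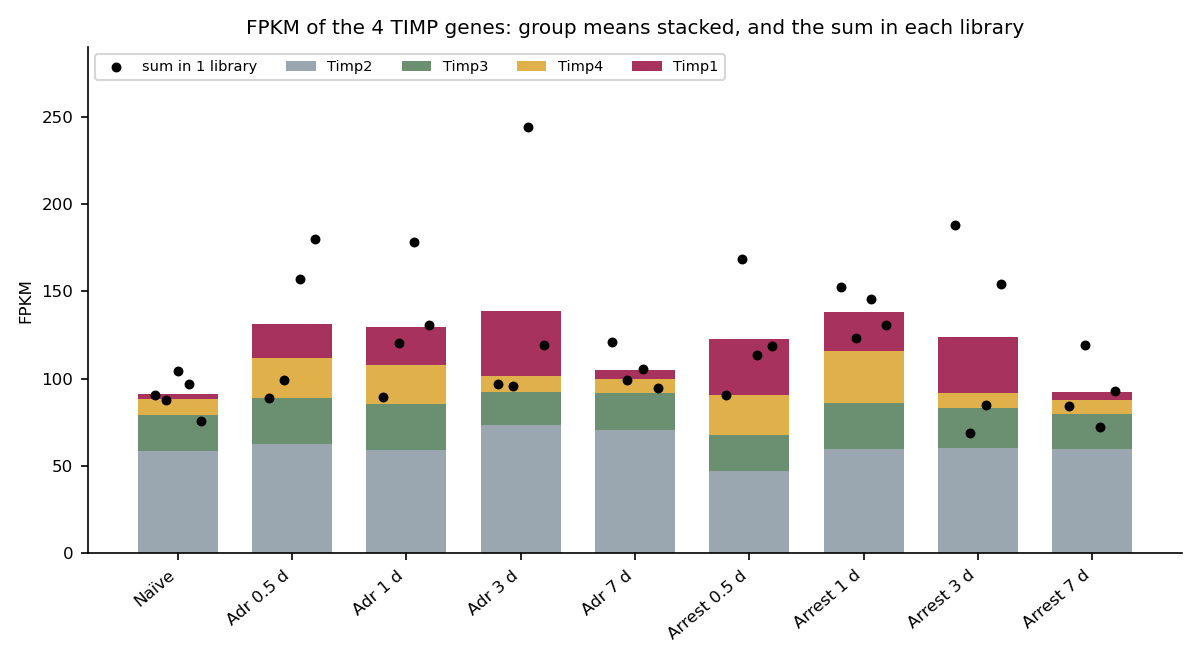
Summed FPKM (y axis) of Timp2, Timp3, Timp4 and Timp1 by group (x axis), as stacked group means (bars) with the sum in each library (points). Timp2 made up most of the Naïve sum of 91.0 FPKM, Timp1 and Timp4 made up more of the bars in Arrest at 0.5 and 1 day, and the highest sum (243.9 FPKM) was Adr 3 d replicate 3.

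Mmp3, Mmp2 and Mmp14 summed to 24.1 ± 3.21 FPKM in Naïve (SD, n = 5), of which Mmp3 took 13.6 ± 8.95%. The share of Mmp3 was 59.2 ± 9.09% in Arrest at 0.5 days, 48.3 ± 4.58% at 1 day and 20.4 ± 4.57% at 7 days (n = 4 each). The ratio of Mmp3 to Timp1 had group means between 0.577 and 1.34, highest in Naïve (1.34 ± 0.833) and 1.02 ± 0.231 and 1.15 ± 0.353 in Arrest at 0.5 and 1 day, with libraries that overlapped Naïve (0.347 to 2.43). No test of the sums and shares was made, since the genes were chosen on these libraries.

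Libraries of 1 group differed among themselves in several of the 9 genes at a time. Arrest 0.5 d replicate 2 was the highest library of its group in 7 of the 9 genes, Arrest 7 d replicate 2 in 8, and Adr 0.5 d replicate 3, Adr 1 d replicate 3 and Adr 3 d replicate 3 in 6 each. In Arrest at 3 days, replicate 1 was highest in Mmp3, Mmp2, Timp3 and Timp4 and replicate 4 in Mmp14, Timp1, Timp2 and Adamts4. Replicates 1 and 4 thus shared a high Timp1 (57.2 and 61.7 FPKM) but differed in Mmp3 (28.4 and 3.19 FPKM) and Timp4 (20.1 and 3.85 FPKM). Markers of monocytes and macrophages summed to 829 and 1187 FPKM in replicates 1 and 4 and to 623 and 541 FPKM in replicates 2 and 3. Those of ventricular cardiomyocytes summed to 7152 and 8571 FPKM in replicates 1 and 4 and to 13133 and 13069 FPKM in replicates 2 and 3. The endothelial markers summed to 300 FPKM in replicate 1 and to 168, 140 and 158 FPKM in replicates 4, 2 and 3. The part of these cell types in the values of the 9 genes was not tested.

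Deviations from the group means were compared over the libraries as a description. Timp3 and Timp4 deviated together, with r = 0.735 over 37 libraries and 0.769 without Adr 3 d replicate 3. Timp1 and Adamts4 had r = 0.708 and 0.557, and Mmp14 and Timp1 had r = 0.682 and 0.443, both lower without that library. Mmp2 and Timp2 had r = 0.564 and 0.504, and Mmp3 and Timp3 had r = 0.599 and 0.615. Timp4 and Timp1 had r = -0.132 and 0.151. All points share the library, its depth and its cell make-up, and the libraries of 1 group share that group's mean.

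**Figure D4:**
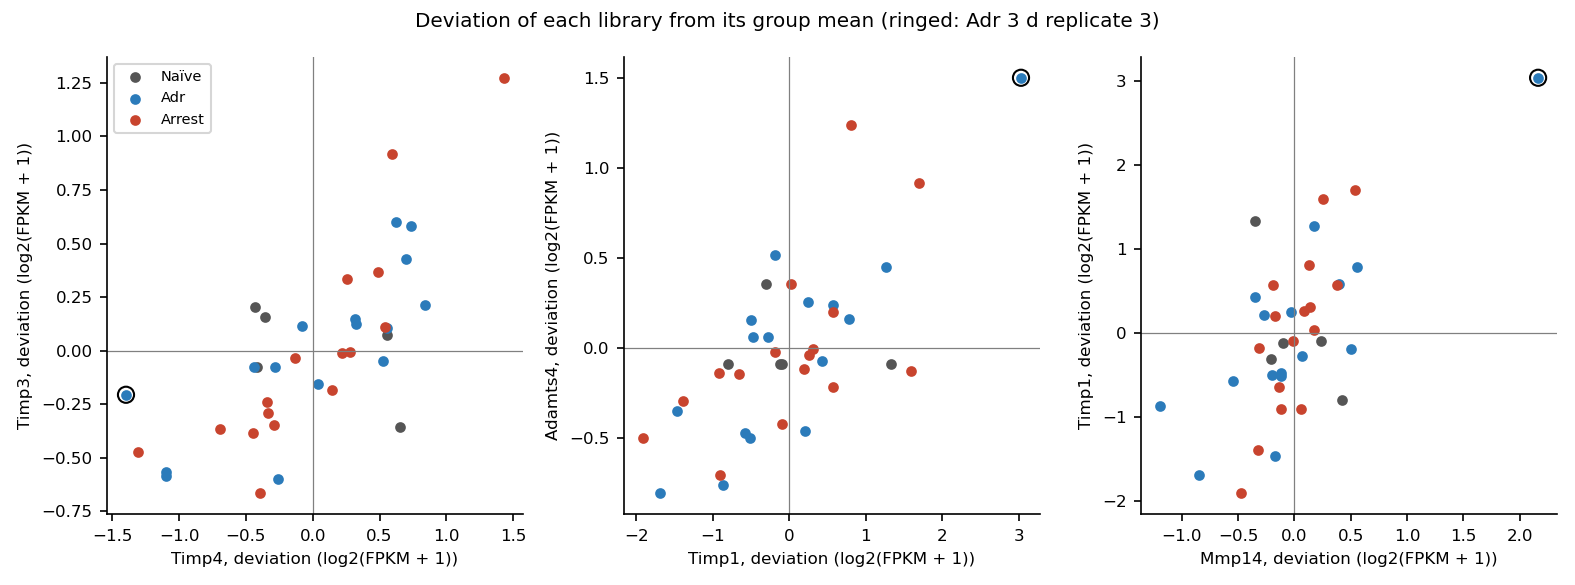
Deviation of each of the 37 libraries (points; Naïve grey, Adr blue, Arrest red; Adr 3 d replicate 3 ringed) from its group mean on the log2(FPKM + 1) scale, for Timp3 against Timp4, Adamts4 against Timp1 and Timp1 against Mmp14 (y against x). The points of Timp3 and Timp4 lie along a line (r = 0.735), and the ringed library is the farthest point of the other pairs.

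For each gene the most similar genes were sought over all 37 libraries, by Pearson's r on log2(FPKM + 1), among genes with a mean of at least 1 FPKM. Mmp3 was most like Mt1 (r = 0.854), Osmr (0.853) and Serpina3n (0.852), and the same 3 genes led without Adr 3 d replicate 3 (0.863, 0.855 and 0.852). Timp1 was most like Lgals3 (0.861), Ms4a6d (0.855) and Rnh1 (0.852), and Timp4 most like Gpihbp1 (0.915), Sult1a1 (0.892) and Pnpla2 (0.874). Timp3 was most like Adgrf5 (0.884), Sptan1 (0.841) and Hipk1 (0.821), and Adamts1 most like Apold1 (0.872), Btg2 (0.825) and Ccn1 (0.813). Adamts4 was most like Sbno2 (0.817), Efhd2 (0.816) and Cd14 (0.81). Among the genes most like Mmp14 were Trem2 (0.877) and Gpnmb (0.863), which fell to 0.738 and 0.697 without Adr 3 d replicate 3, where Efhd2 (0.795), Fxyd5 (0.789) and Id3 (0.787) led. Mmp2 and Timp2 had weaker likeness, led by Serpinf1 (0.695) and Adamts2 (0.725). These values describe 37 libraries in which condition and depth are shared, and they carry no test.

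Other proteases of the same families were mostly low. Of 20 other matrix metalloprotease genes, 10 passed the filter, and Mmp15, a membrane-bound protease with a mean of 13 FPKM, was the only one called with all libraries, 1.33 lower in Arrest at 0.5 days (adjusted p = 0.0107) and 1.39 lower at 1 day (adjusted p = 0.00399) than in Naïve. Mmp19 in Arrest at 0.5 days (0.91 higher, adjusted p = 0.022) and Mmp12 in Adr at 1 day (0.74 higher, adjusted p = 0.00981) were also called without Adr 3 d replicate 3. Mmp9, the other gelatinase, averaged 0.775 FPKM. Of 17 other ADAMTS genes, 11 passed the filter and 1, Adamts15, was called in Arrest at 1 day, 0.83 higher (adjusted p = 0.0105), where 7.11% of all genes were called. Of 8 membrane-bound ADAM proteases, which shed cell surface proteins, Adam15 was 0.71 higher (adjusted p = 0.00778) and Adam19 1.01 lower (adjusted p = 0.00397) in Arrest at 1 day. Both were also called in Arrest at 0.5 days, and Adam19 was 0.88 lower in Adr at 1 day (adjusted p = 0.0464).

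Among 12 genes of protease activation and other inhibitors, of which 10 were tested, 2 were called in Arrest at 0.5 days, both higher, where 3.21% of all genes were called. They were Plaur, the urokinase receptor, at 1.62 (adjusted p = 0.0168) and Serpine2, a serine protease inhibitor, at 0.63 (adjusted p = 0.0431). At 1 day Serpine2 was called again (0.70, adjusted p = 0.0134), and Plaur was without Adr 3 d replicate 3 (1.14, adjusted p = 0.0332, against 0.0596 with all libraries). Among 17 matrix substrates, of which 16 were tested, 2 were called in Arrest at 1 day, Eln (elastin) 1.10 higher (adjusted p = 0.00786) and Lamb1 (a laminin chain) 0.63 lower (adjusted p = 0.00376), where 7.11% of all genes were called. Hspg2 (perlecan) was also called without Adr 3 d replicate 3, 0.46 lower (adjusted p = 0.0386). Their median difference at 1 day was -0.15.

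Among 24 genes of the cytokine signalling that is known to act on these genes (cytokines, receptors, transcription factors and 1 feedback inhibitor, Socs3), 20 were tested, and 6 were called in Arrest at 0.5 days and 7 at 1 day, all higher than in Naïve, where 3.21% and 7.11% of all genes were called. Their median differences were 0.59 and 0.54, against 0.03 for all tested genes at both times. The largest were Socs3 at 2.05 (adjusted p = 0.00736) at 0.5 days and 1.66 (adjusted p = 0.0146) at 1 day, and Junb, a subunit of the AP-1 factor, at 1.64 (adjusted p = 0.0447) and 2.10 (adjusted p = 0.00569). In Adr 0 of these 20 genes were called at 0.5 or 1 day, and without Adr 3 d replicate 3 1 was at 0.5 days. Between the arms 0% of all genes were called at these times. The genes of this list that were called against Naïve at these times were receptors, transcription factors and Socs3. Of the cytokines, Il1b, Tnf and Tgfb1 were tested and not called. Il6, Osm and Lif did not pass the filter on low values, so they could not be called. In Naïve, Arrest at 0.5 days and Arrest at 1 day, Il6 averaged 0, 1.09 and 0.357 FPKM. Osm averaged 0, 0.678 and 0.321 FPKM and Lif 0.123, 0.357 and 0.248 FPKM in these groups.

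Markers of other cell types were read beside these results. The 8 neutrophil markers summed to 0 to 10.3 FPKM in Naïve, 3.6 to 32.2 FPKM in Arrest at 0.5 days and 6.08 to 19.4 FPKM at 1 day, with Ly6g listed at 0 in all 37 libraries and Mpo in 32. Of the 4 neutrophil markers tested, 0 were called in Arrest at 0.5 or 1 day. All 4 had positive differences from Naïve at both times, with medians of 1.31 at 0.5 days and 1.26 at 1 day. By flow cytometry and tissue staining, the study found more neutrophils in Arrest than in Naïve hearts early after resuscitation. The 8 monocyte and macrophage markers summed to 341 to 597 FPKM in Naïve, 385 to 550 FPKM in Arrest at 0.5 days and 330 to 538 FPKM at 1 day, and 0 of the 8 were called. Without Adr 3 d replicate 3, Chil3, listed at 0 in Naïve and with a mean of 4.14 FPKM in Arrest at 0.5 days, was called there (adjusted p = 0.0160, against 0.0736 with all libraries). The 8 fibroblast markers summed to 813 to 1007 FPKM in Naïve and 756 to 979 FPKM in Arrest at 0.5 days, and at 1 day, at 1042 to 1220 FPKM, all 4 sums were above Naïve. Gsn and Dcn, with medians of 591 and 171 FPKM over all libraries, were the highest of these markers and weigh most in the sum. At 1 day 4 of the 8 markers had a positive difference from Naïve, and the median was 0.04. Of the 8 fibroblast markers 0 were called at either time, and without Adr 3 d replicate 3 Lum was, 0.91 lower at 1 day (adjusted p = 0.0445). The part of these cell types in the Mmp3 and Timp1 values was not tested. The 6 ventricular cardiomyocyte markers were all above 0 in every library, and 0 were called in Arrest at 0.5 or 1 day. Without Adr 3 d replicate 3 Ttn was, 0.74 lower at 1 day (adjusted p = 0.0243, against 0.0676 with all libraries). The 6 markers of skeletal muscle of the chest wall summed to 0 to 3.75 FPKM in Naïve and 1.53 to 4.1 FPKM in Arrest at 1 day. Among them Tnni2 was 0.96 higher there (adjusted p = 0.0425). Of 6 endothelial markers, Kdr was 0.92 lower (adjusted p = 0.0107) and Cdh5 0.42 lower (adjusted p = 0.0181) in Arrest at 1 day, while the other 4 had positive differences and the median was 0.11. At 0.5 days Kdr was 0.95 lower (adjusted p = 0.0181) and Emcn 0.60 higher (adjusted p = 0.0107). Of 6 smooth muscle and pericyte markers Myh11 was 0.90 lower in Arrest at 1 day (adjusted p = 0.0227) and 1.09 lower in Adr at 1 day (adjusted p = 0.0328). The 4 atrial markers summed to 13.8 to 32.4 FPKM in Naïve, 16.8 to 73.2 FPKM in Arrest at 0.5 days and 32.7 to 72.7 FPKM at 1 day. Their highest sums were 693 FPKM in Adr 1 d replicate 2, 485 FPKM in Adr 3 d replicate 3 and 256 FPKM in Arrest 7 d replicate 2. The part of atrial tissue in the results was not tested.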

How the data were processed

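RNA of left ventricular tissue was sequenced by Novogene (NovaSeq, paired reads), checked with FastQC and aligned with HISAT2 v2.0.5 for the authors. The deposited table gives the FPKM of 56748 genes as the authors made them, with 1 column for each of 37 libraries per the labels. The counting tool, the strand and the genome build are not given in the sources used here; only 1 of the 9 genes starts within 1000 bases of its GRCm38 start, so the promoters (RefSeq, GRCm38.p6) and exons (GENCODE M21) were matched by symbol. Multiplied by gene length, 100% of the values were whole multiples of the worth of 1 fragment (tolerance 0.05), which gave the fragments per library. Rescaling by median ratios gave 1.0131 in every library, so it did not change the libraries relative to each other. Among 666 pairs of columns 0 were identical.

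The 16530 genes that reached 0.5 FPKM in 4 libraries or more entered 1 model of all libraries on log2(FPKM + 1), with a mean per group and no covariate (limma 3.58.1, trended eBayes, R 4.3.3). P-values were adjusted by Benjamini-Hochberg over all tested genes within a comparison, with a threshold of 0.05. The fit was tested on simulated data. The genes, lists and tests were chosen with earlier results of these data known. All 9 genes are described; of each list the 2 called genes with the largest difference in a comparison may be named, and up to 3 of the most similar genes are named for each gene, with some results not reported here. Mmp9 and the genes called only without Adr 3 d replicate 3 are named outside that rule, after their values were seen. Alternatives were the scaling, pseudocount, filter, gene length trend, sample weights, samples in the fit, replicate block, description number, test and leaving out each library. Same-numbered libraries did not deviate together in every pair of any comparison, so numbers were not taken as pairs. Figures were drawn with matplotlib.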

Additional observations from a re-analysis of the deposited data

Results flagged for a closer look

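Of 81 sets of libraries (9 genes in 9 groups), 13 held a library whose gap to its nearest neighbour took up most of the range of its group, by Dixon's 95% limit. For normally distributed values chance alone gives about 1 such set in 20, and whether these FPKM are so distributed was not tested. The genes of 1 library are not independent of each other. In Adr at 3 days, replicate 3 stood apart in Timp1 (128.4 FPKM, the others 3.91 to 10.4), Mmp14 (42.99 FPKM, the others 3.29 to 8.03) and Mmp2 (24.72 FPKM, the others 15.7 to 17.1). It is the library with a mitochondrial share of 9.357%.

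In Arrest at 3 days, replicate 1 stood apart in Timp3 (48.4 FPKM, the others 11.9 to 16.3), Timp4 (20.1 FPKM, the others 3.85 to 5.16) and Mmp3 (28.38 FPKM, the others 3.19 to 7.39). In Arrest at 0.5 days, replicate 2 stood apart in Adamts1 (66.95 FPKM, the others 10.4 to 17.1) and Timp3 (37.03 FPKM, the others 14.4 to 16.7), and replicate 1 was low in Mmp3 (16.61 FPKM, the others 33.9 to 36.03).

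Single genes stood apart in the remaining libraries. Adr 7 d replicate 4 held 6.978 FPKM of Mmp3 (the others 4.54 to 4.77) and Adr 0.5 d replicate 4 held 41.52 FPKM of Timp1 (the others 10.9 to 14.5). Naïve replicate 1 held 7.7 FPKM of Timp1 (the others 0.993 to 2.24), and Naïve replicate 3 held 0.3639 FPKM of Adamts4, which is listed at 0 in the others. With the others at 0, any value above 0 would have stood apart by this rule.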

How the results depend on the processing

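Counts are of the 9 genes called, and no called difference reversed under any alternative. Without Adr 3 d replicate 3 the sign of 3 differences that were not called turned, Timp4 in Adr at 3 days against Naïve (-0.07 to 0.39) and, in Arrest against Adr at 3 days, Mmp14 (-0.10 to 0.62) and Timp3 (0.04 to -0.02). With quantile normalization, division by the fragments counted or removal of the length trend, every count was as reported. The FPKM as deposited gave the same counts, but the main fit divided every library by the same 1.0131, so that fit tests no other scaling. With a pseudocount of 0.1 Arrest at 1 day had 4, without a filter 2, and with a filter of a mean of at least 1 FPKM Arrest at 0.5 days had 2. Sample weights gave 1 in Adr at 0.5 days, 2 in Adr at 1 day, 5 in Arrest at 1 day, 3 in Arrest at 0.5 against 7 days and 4 at 1 against 7 days. A fit of only the compared groups gave 0 in Adr at 1 day and 3 in each of Arrest at 0.5 and at 1 against 7 days. Voom gave 0 in Adr at 1 day. In Arrest at 0.5 days voom, the fit of only the compared groups and the description number gave 2 each.

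With the number in the sample description as a covariate the counts were 0 in Adr at 1 day, 0 in Arrest at 1 day and 0 in Arrest at 1 against 7 days, and for Mmp3 in Arrest at 1 day the difference was 2.34 (adjusted p = 0.116). The numbers of Naïve (116 to 127) and Arrest at 1 day (70 to 95) do not overlap, so number and group cannot be told apart there. With Adr 3 d replicate 3 also left out, a choice made after seeing the data, these counts were again 0, 0 and 0, and Arrest at 0.5 against 7 days had 2.

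Leaving out single libraries gave 0 to 1 in Adr at 0.5 days, 0 to 2 in Adr at 1 day, 1 to 3 in Arrest at 0.5 days, 1 to 5 in Arrest at 1 day, 0 to 1 in Arrest at 3 days, and 0 to 2 in Arrest at 0.5 and at 1 against 7 days. The fit without Adr 3 d replicate 3 was among the highest for each. In Arrest at 0.5 days the count of 1 came without its replicate 2, and in Arrest at 1 day without its replicate 1 or 3. In Adr at 1 day Mmp3 was lost without Naïve replicate 4 or Adr 1 d replicate 2 or 3. With the replicate block, a number that does not pair the libraries, Arrest at 0.5 days had 2 (Adamts4 at an adjusted p of 0.0508) and Arrest at 1 day 2 (Timp4 at 0.0965), and the other counts were as reported. The SE of 0.71 for Timp1 and the low fragment numbers of Adamts4 limit what could be called.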
